A study of Homo sapiens with 3 samples.

Results

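The brain miRNAs miR-124, miR-128, miR-153, miR-219a and miR-129 were examined in small RNA libraries of MV4-11, a human acute myeloid leukemia (AML) cell line. Per the study, the line is homozygous for FLT3-ITD, an internal tandem duplication in the receptor gene FLT3. It also has the fusion protein MLL-AF4. The members were chosen by name. All 10 hairpins sought had a row among the 661 primary transcripts listed, and their mature arms took up 16 of the 851 mature rows, under 9 of 783 names. The cells, of genotype WT per the labels, carried the EV lentiviral CRISPR-Cas9 construct and were harvested 2 weeks after infection. There were 3 replicate cultures in 1 group, with no treated or other control group, so comparisons are between miRNAs, between arms, between hairpin copies and between libraries. A single cell line stands here for the disease, and no brain sample was among the libraries.

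A miRNA is cut from a hairpin in a longer transcript by Drosha and Dicer, which leaves a 5p and a 3p strand. One strand is usually retained in an Argonaute protein, and it finds target mRNAs mainly through its seed, bases 2 to 8. Several miRNAs of the brain are encoded by more than 1 hairpin, so that the same mature strand can come from different chromosomes. miR-124 is the miRNA best known from neurons, where it represses transcripts of non-neuronal cells. miR-128 is abundant in neurons and has also been described in leukemia, miR-153 targets genes of synaptic vesicles, and miR-219 is known from maturing oligodendrocytes.

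The sequences printed here show where arms and copies of miR-128 differ and the seeds of the other members matched. They were taken from RefSeq (GRCh38.p14), which matched 6 of the 9 listed names, without miR-124-3p, miR-124-5p and miR-153-5p. The seed is in capitals. miR-128-3p (chr2:135665446-135665466 and chr3:35744527-35744547, both plus strand) was the same in both hairpins, whereas its 5p partners (chr2:135665411-135665433 and chr3:35744490-35744512) were not. miR-153-3p lies at chr2:219294126-219294147 on the minus strand, miR-219a-5p and miR-219a-1-3p at chr6:33207855-33207875 and chr6:33207896-33207917 on the plus strand, and miR-129-5p at chr11:43581408-43581428 on the plus strand. Another place of miR-219a-5p is chr9:128392676-128392696 on the minus strand. miR-153-3p and miR-129-5p each also have a hairpin on chromosome 7, for which no place of the strand is printed.
miR-128-3p: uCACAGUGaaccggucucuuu
miR-128-1-5p: cGGGGCCGuagcacugucugaga
miR-128-2-5p: gGGGGCCGauacacuguacgaga
miR-153-3p: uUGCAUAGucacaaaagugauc
miR-219a-5p: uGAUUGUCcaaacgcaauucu
miR-219a-1-3p: aGAGUUGAgucuggacgucccg
miR-129-5p: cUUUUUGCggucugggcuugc

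The 5p arms of the miR-128 hairpins shared a seed and differed at 6 of 23 positions. Their 3p arms had no difference, but of the first 6 bases after the arm, 4 differed. The 3p arm is given with 3 bases before and 6 after it, and capitals here mark every base at which the hairpins differ.
hsa-mir-128-1: UucucacagugaaccggucucuuuUUcAGc
hsa-mir-128-2: GucucacagugaaccggucucuuuCCcUAc

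Of the 679 listed mature miRNAs with a RefSeq sequence, no other had the seed of any of the 6 members matched. Seeds of miR-124-3p, miR-124-5p and miR-153-5p were not searched. A search for seeds shifted by 1 base, added after levels were seen, found miR-27a-3p and miR-27b-3p, whose seeds are bases 1 to 7 of miR-128-3p. miR-27a-3p had 323462 ± 99417 FPKM (SD, n = 3) and ranked 29, above miR-128-3p. miR-27b-3p had 164351 ± 40536 FPKM (SD, n = 3) and ranked 41, next below miR-128-3p. FPKM is the count per 1000 bases of the feature and 1000000 counted reads, as deposited. Ligation and PCR capture different small RNAs unequally, so levels of different miRNAs are not strict molar ratios.
miR-27a-3p: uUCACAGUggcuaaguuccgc
miR-27b-3p: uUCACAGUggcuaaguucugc

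Each library held from 10991953 to 12694823 mature counts, and the members held 0.559% ± 0.0389 (SD, n = 3) of the summed mature FPKM. Replicate 1 stood apart from the others: the median log2 FPKM ratio to replicate 1 over the 781 names above 0 everywhere was 0.48 for replicate 2 and 0.57 for replicate 3, while replicate 3 exceeded replicate 2 by a median of 0.09. Values of the members are therefore given per library where results turn on them. The miRNAs of white blood cells used as markers were all listed, 8 of 8, with a summed level of 1732600 to 2966890 FPKM, against 242873 to 276223 FPKM for the 9 members. They ran from miR-155-5p at 1100895 ± 124530 FPKM (SD, n = 3), a large part of that sum, to miR-150-5p of lymphocytes with 7, 11 and 21 counts and a mean of 53.2 FPKM, below 8 of the 9 members. In RNA from many cells, fewer cells with a miRNA and less of it per cell cannot be told apart.

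miR-128-3p was the highest member. Counts, with both rows of the name summed, were 61500, 35060 and 37470 in replicates 1, 2 and 3. Its levels were 242175, 159446 and 160336 FPKM, a mean of 187319 ± 47509 (SD, n = 3), which ranked 40 of 783. Replicate 1 was the highest library for miR-128-3p, and replicates 2 and 3 differed by 0.01 on the log2 scale.

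miR-124-3p followed, with 5145, 12461 and 19065 counts over its 3 rows. Levels were 21326, 59653 and 85874 FPKM in replicates 1, 2 and 3, a mean of 55618 ± 32463 (SD, n = 3) and rank 72. Replicate 1 was thus the lowest library for miR-124-3p and the highest for miR-128-3p. The excess of miR-128-3p over miR-124-3p was 11.4-fold in replicate 1, 2.67-fold in replicate 2 and 1.87-fold in replicate 3. The order of the pair held in 3 of 3 libraries and their means differed by more than the larger SD, but its size depended on the library.

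miR-124-5p, the other strand of the same hairpins, had 2993, 4970 and 6197 counts, or 11225, 21526 and 25255 FPKM. Its mean of 19335 ± 7267 FPKM (SD, n = 3) ranked 107. Both strands of miR-124 therefore lay among the upper 13.7% of names when the rows of a name were summed. With rows averaged, the ranks were 105 for miR-124-3p, 153 for miR-124-5p and 55 for miR-128-3p. After them the levels dropped, with rows summed, by 25.6-fold to the next member, miR-153-3p. With rows averaged, miR-124-5p had 6445 FPKM and the next member was miR-128-1-5p at 697 FPKM.

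miR-153-3p had 88, 222 and 238 counts and a mean of 754 ± 367 FPKM (SD, n = 3), at rank 308. miR-128-1-5p had 135, 160 and 243 counts and 697 ± 233 FPKM (SD, n = 3), at rank 317. The order of these neighbours was not resolved, as their means differed by 57.1 FPKM and miR-153-3p was the higher in 2 of 3 libraries.

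The lowest 4 members were below the median of all names, which was 270 FPKM. miR-219a-1-3p had 90, 51 and 43 counts, with a mean of 245 ± 83.7 FPKM (SD, n = 3). miR-219a-5p had 23, 55 and 71 counts and 215 ± 111 FPKM (SD, n = 3). miR-129-5p, known from neurons and often silenced in tumours, had 63, 29 and 25 counts and 162 ± 75.3 FPKM (SD, n = 3). Neighbours among these 3 differed by less than the larger SD. miR-153-5p was near the limit of the table with 2, 5 and 10 counts, 23.3 ± 16.7 FPKM (SD, n = 3), and rank 777. Its share was 0.158 per 1000000 counts in replicate 1 (Wilson 95% interval 0.0432 to 0.574) while replicate 3 had 0.856 (0.465 to 1.58). Such intervals cover counting error only, since PCR copies were not marked.

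**Figure D1:**
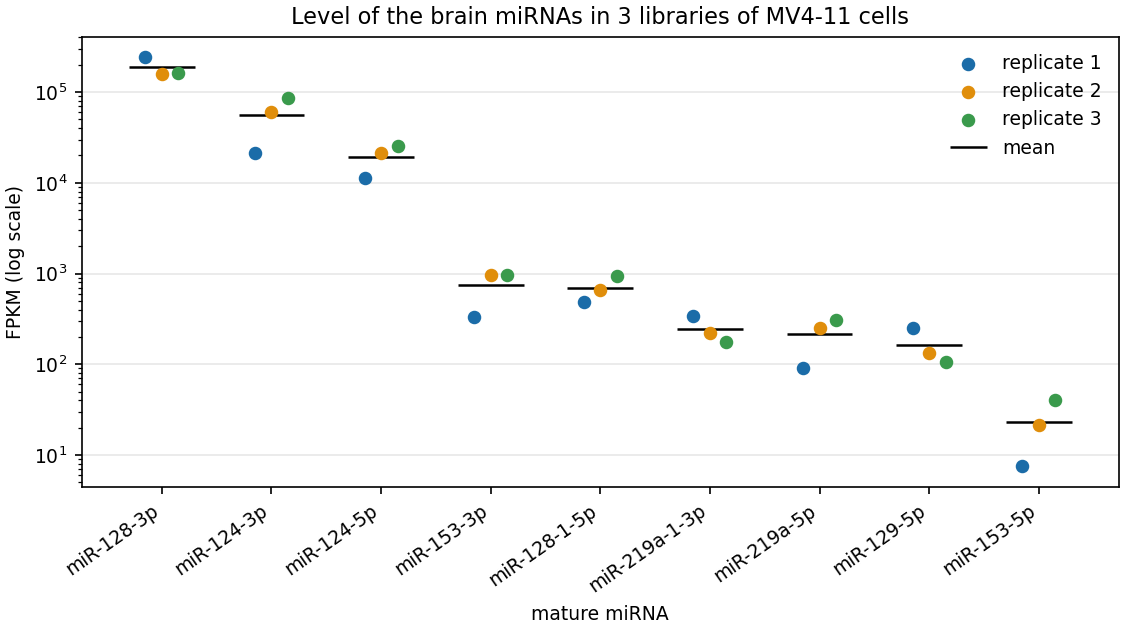
Level of each of the 9 listed mature miRNAs as deposited (FPKM, log axis), with 1 point per library and a bar at the mean of the 3 replicates, ordered by mean. miR-128-3p, miR-219a-1-3p and miR-129-5p are highest in replicate 1, and the other 6 are lowest there. Of the 781 names above 0 in all libraries, 20.7% are highest and 64.9% lowest in replicate 1.

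Arms with no row were miR-128-2-5p, miR-129-1-3p, miR-129-2-3p and miR-219a-2-3p. The lowest row in the table had 14 counts over the 3 libraries, so a missing row can mean few counts as well as none. The neighbours of each listed member in the ranking, 18 in all, were within the larger SD of the pair, so no rank given here is exact. Beside miR-124-3p stood miR-339-5p at 57607 ± 37971 FPKM and let-7b-5p at 55353 ± 17900 FPKM (SD, n = 3).

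How the reads of a shared strand were split between hairpins was asked next. The 3 rows of miR-124-3p could be assigned to hairpins in only 1 way that kept the summed arms at or below the hairpin's own count in every library, and the same held for the other names with several rows. For hsa-mir-124-1, hsa-mir-124-2 and hsa-mir-124-3 the miR-124-3p rows held 1721, 1705 and 1719 counts in replicate 1, 4271, 4055 and 4135 in replicate 2, and 6390, 6380 and 6295 in replicate 3. Each row was thus close to an equal share of 33.3%, and the observed shares ran from 32.5% to 34.3%. The Wilson 95% interval held the equal share in 8 of 9 cases, the exception being hsa-mir-124-1 in replicate 2 (33.4 to 35.1%). For miR-124-5p the shares ran from 32.0% to 34.1% and every interval held 33.3%. A mature read of miR-124 does not tell its hairpin, so these rows give no level of any single copy.

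The primary transcript counts of the miR-124 copies were as even. The arms held at least 98.60% of each count, so these are mostly the same reads and no second measure. Tests on them compare how shared reads were divided and give no level of any single copy. hsa-mir-124-1 had 2782, 5987 and 8505 counts, hsa-mir-124-2 had 2664, 5688 and 8432, and hsa-mir-124-3 had 2731, 5792 and 8338. Copies were compared within libraries by the quasi-likelihood test of edgeR, over all 71 pairs of numbered copies in 47 families. A pair was called at a Benjamini-Hochberg adjusted p under 0.05 with at least a 2-fold ratio, which 2.82% of pairs met with the first copy higher and 1.41% with the second copy higher. None of the 6 pairs of members was called by edgeR, limma or DESeq2. An unadjusted edgeR p under 0.05 was found for 3 of the 6, and for 28 of all 71 pairs. For hsa-mir-124-1 against hsa-mir-124-2 the log2 ratio was 0.05 (edgeR adjusted p = 0.102), and for hsa-mir-124-2 against hsa-mir-124-3 it was -0.01 (edgeR adjusted p = 0.828).

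Counts outside the listed arms of miR-124 were found at hsa-mir-124-1 alone, 39, 36 and 13 in the 3 libraries. At hsa-mir-124-2 and hsa-mir-124-3 the arms summed to the hairpin count exactly. MIR124-1 (chromosome 8, 9903388 to 9903472, minus strand of GRCh38) is in an exon of the long non-coding RNA LINC00599. MIR124-2 (chromosome 8, 64379149 to 64379257, plus strand) is in an intron of its host MIR124-2HG. MIR124-3 (chromosome 20, 63178500 to 63178586, plus strand) overlaps only an intron of AL096828.1 on the other strand. Small RNA reads do not measure host transcripts.

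The split of miR-128-3p was uneven. The row assigned to hsa-mir-128-1 held 36299, 20875 and 21904 counts and that of hsa-mir-128-2 held 25201, 14185 and 15566. The share of hsa-mir-128-1 was 59.0% (Wilson 95% interval 58.6 to 59.4), 59.5% (59.0 to 60.1) and 58.5% (58.0 to 59.0) in the 3 libraries, so that the equal share of 50.0% lay outside in 3 of 3 libraries. Of the 33 repeated mature names with at least 1000 counts in all, the median ratio of the largest to the smallest row was 1.02, and that of miR-128-3p was 1.44. A single name, miR-194-5p, had a larger ratio, 1.87.

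At the level of hairpins, hsa-mir-128-1 had 36582, 21137 and 22266 counts, and hsa-mir-128-2 had 25201, 14185 and 15566. The fold was 1.45, 1.49 and 1.43 in the 3 libraries. The log2 ratio of 0.54 had an edgeR adjusted p of 7.17e-07 but was under the 2-fold needed for a call. Over the 3 libraries the shared 3p strand made up 98.9% of the counts of hsa-mir-128-1 and 100% of those of hsa-mir-128-2. The test therefore repeats the split of the shared strand and gives no level of either copy. Among the 71 pairs, 23 had an adjusted p under 0.05 whatever the fold. Without the library as a block the adjusted p of the pair was 0.836. The counts of either copy differed more between libraries than the copies did within any library.

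The 5p arm, which does differ between the copies, was found for 1 copy only. miR-128-1-5p had 135, 160 and 243 counts. For hsa-mir-128-2 the hairpin count equalled its miR-128-3p row in each library, so that 0 counts were left for miR-128-2-5p or any other part of the hairpin. Against a floor of 3 counts per library, miR-128-1-5p was at least 45.0-fold, 53.3-fold and 81.0-fold higher than miR-128-2-5p in replicates 1, 2 and 3. As a share of its hairpin's arms, miR-128-1-5p made up 0.371% (Wilson 95% interval 0.313 to 0.438), 0.761% (0.652 to 0.887) and 1.10% (0.968 to 1.24) in those libraries. The same floor allowed the 5p arm of hsa-mir-128-2 at most 0.0119%, 0.0211% and 0.0193%. Counts outside both arms, 148, 102 and 119, were also found at hsa-mir-128-1 only of this pair.

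MIR128-1 (chromosome 2, 135665397 to 135665478, plus strand) is in an intron of R3HDM1, a gene of a predicted RNA-binding protein. MIR128-2 (chromosome 3, 35744476 to 35744559, plus strand) is in an intron of ARPP21, a phosphoprotein gene best known from neurons of the striatum. The counts of the 5p arms and of the stretches outside the arms were thus all at the copy within R3HDM1. Reads of the 3p arm that ran past its end could also name a copy. They were not separated within the 3p rows, which both copies had. Transcripts of R3HDM1 and ARPP21 were not measured in these libraries.

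**Figure D2:**
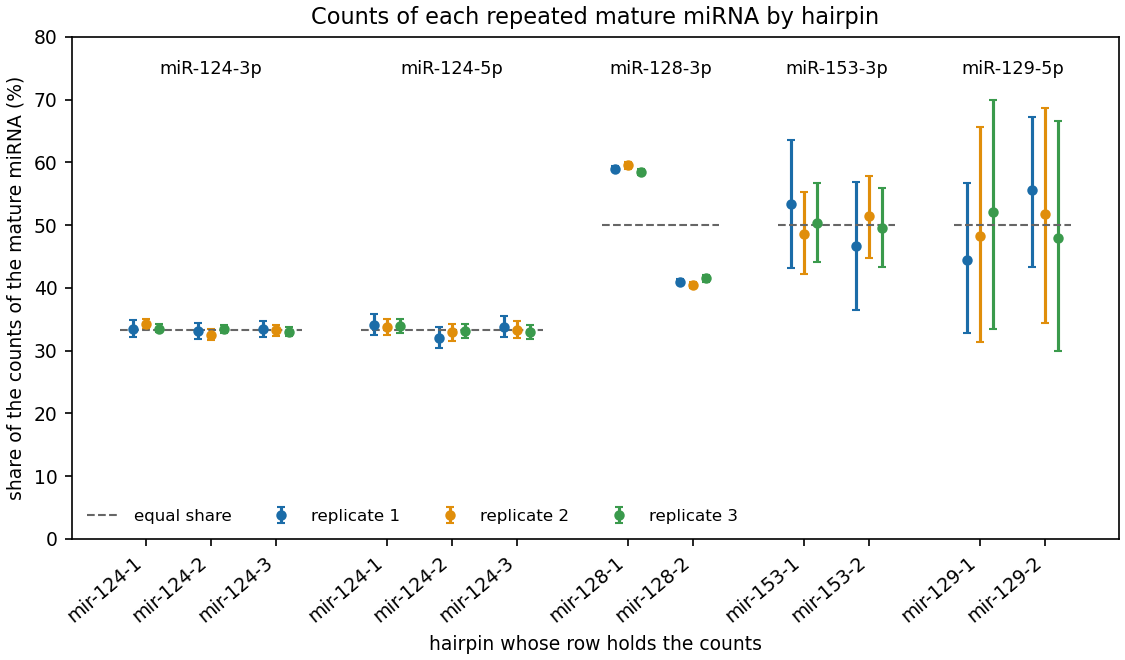
Share of the counts of a mature miRNA (%) held by the row of each hairpin, with 1 point per library, Wilson 95% intervals as bars and the equal share as a dashed line. The miR-128-3p shares lie at 58.5 to 59.5% for mir-128-1, and the other names lie around an equal split.

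miR-153-3p was split evenly, with 47, 108 and 120 counts at hsa-mir-153-1 and 41, 114 and 118 at hsa-mir-153-2, and each interval held 50.0%. The log2 ratio of the hairpins was 0.00 (edgeR adjusted p = 1.00), with a range from -0.07 to 0.13 over the libraries. These hairpin counts were mainly those of the shared 3p arm, so they give no level of either copy. The counts of miR-153-5p, 2, 5 and 10, were those of hsa-mir-153-2. At hsa-mir-153-1, where no 5p arm was listed, 1, 5 and 10 counts lay outside the 3p arm. MIR153-1 (chromosome 2, 219294111 to 219294200, minus strand) is in an intron of PTPRN, and MIR153-2 (chromosome 7, 157574336 to 157574422, minus strand) in an intron of PTPRN2. These paralogs encode proteins of secretory granules that belong to the receptor-type phosphatase family.

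miR-129-5p was split into 28, 14 and 13 counts at hsa-mir-129-1 and 35, 15 and 12 at hsa-mir-129-2, with every interval around 50.0%. As for miR-124, rows of a shared strand give no level of a single copy. The 3p arms of the copies differ in sequence but had no rows. The hairpin counts left at most 0, 1 and 1 counts for miR-129-1-3p and 3, 2 and 3 for miR-129-2-3p. MIR129-1 (chromosome 7, 128207872 to 128207943, plus strand) had no overlapping gene, and MIR129-2 (chromosome 11, 43581394 to 43581483, plus strand) is in introns of AC068205.1 and AC068205.2.

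**Figure D3:**
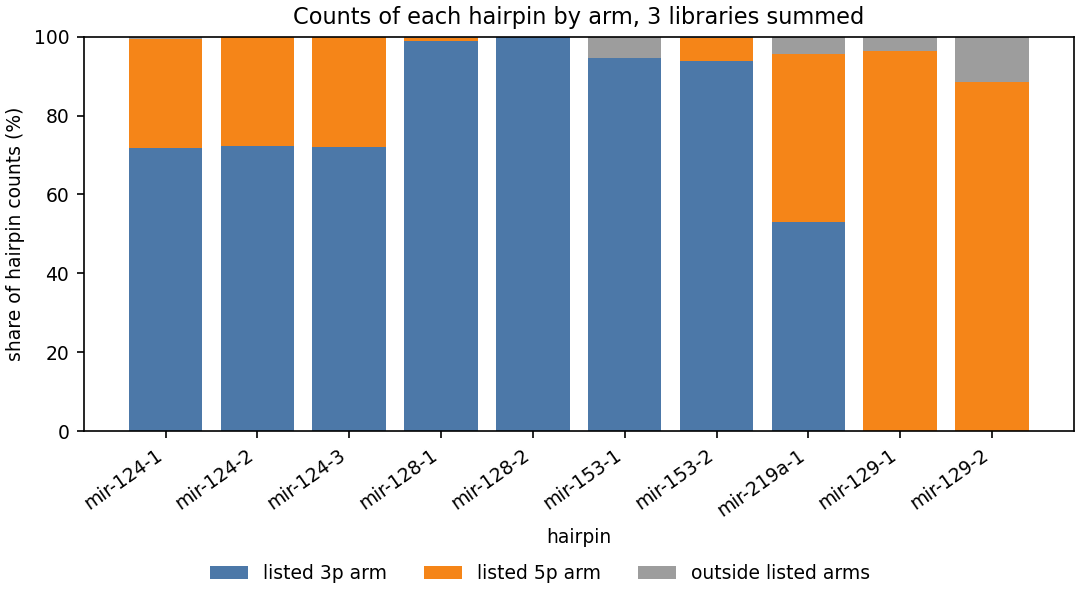
Counts of each of the 10 hairpins (3 libraries summed, as a percent of the hairpin's own count) that fell in the listed 3p arm, the listed 5p arm or elsewhere. The 3p arm holds 98.9% at mir-128-1 and 100% at mir-128-2, the miR-124 copies share a 5p part of 27.7 to 27.9%, and the mir-129 copies are mainly 5p.

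The arms were compared within libraries to learn which was the more abundant. Copies of a name were summed, and 208 pairs of arms above 0 in all libraries were tested with edgeR on counts, with the library as a block. At an adjusted p under 0.05 and at least a 2-fold ratio, 40.9% of pairs were called toward 5p and 41.8% toward 3p. Of the 4 pairs of members, 3 were called toward 3p, none toward 5p, and miR-219a was not called. The median absolute log2 ratio of all pairs was 3.42, so a preference as such was common.

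miR-128 had the strongest preference of the members. The 3p arm exceeded the 5p arm by 456-fold, 219-fold and 154-fold in counts in replicates 1, 2 and 3. The log2 ratio of 5p to 3p was -7.95 (edgeR adjusted p = 3.08e-05), with an SD of 0.80 between libraries. This sets 2 copies of the 3p arm against 1 listed 5p arm, and within hsa-mir-128-1 alone the 3p arm was 269-fold, 130-fold and 90.1-fold higher. miR-153 was also toward 3p in 3 of 3 libraries, with a log2 ratio of -5.04 (edgeR adjusted p = 1.05e-04) that rests on few 5p counts. Here too, 2 copies of the 3p arm are set against 1 listed 5p arm. Within hsa-mir-153-2 alone the 3p arm had 41, 114 and 118 counts and the 5p arm 2, 5 and 10.

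miR-124 had the smallest ratio of the called members. The 5p arm made up 36.8% of its counts in replicate 1, 28.5% in replicate 2 and 24.5% in replicate 3, and these Wilson intervals did not overlap. The log2 ratio was -1.24 (edgeR adjusted p = 0.00550), toward 3p in 3 of 3 libraries. Without replicate 2 the adjusted p was 0.0728 and the pair was no longer called. Both strands had 3 rows, 1 per copy.

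miR-219a changed side. The 5p arm made up 20.4% of counts (Wilson 95% interval 14.0 to 28.7), 51.9% (42.5 to 61.2) and 62.3% (53.1 to 70.6) in replicates 1, 2 and 3. The log2 ratio was -1.97, 0.11 and 0.72 in the 3 libraries, and their SD of 1.41 was above that of 93.3% of all pairs. Neither side was called (log2 ratio -0.33, edgeR adjusted p = 0.614), and without replicate 1 the ratio turned to 0.42 (edgeR adjusted p = 0.205). Of the 208 pairs, 23 changed side between libraries.

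As deposited, without scaling for the shift between libraries, the count of the whole hairpin hsa-mir-219a-1 stayed nearly level. It was 121, 111 and 116 in the 3 libraries, or 90.1 ± 2.63 FPKM (SD, n = 3), while one arm went from 90 to 43 counts and the other from 23 to 71. The size factors by the median of ratios were 0.862, 1.03 and 1.17 for replicates 1, 2 and 3. Divided by them, the hairpin count was highest in replicate 1 and lowest in replicate 3, so a constant output is not shown. MIR219A1 (chromosome 6, 33207835 to 33207944, plus strand) had no overlapping gene. A second hairpin that encodes miR-219a-5p, MIR219A2 on chromosome 9, had no row.

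**Figure D4:**
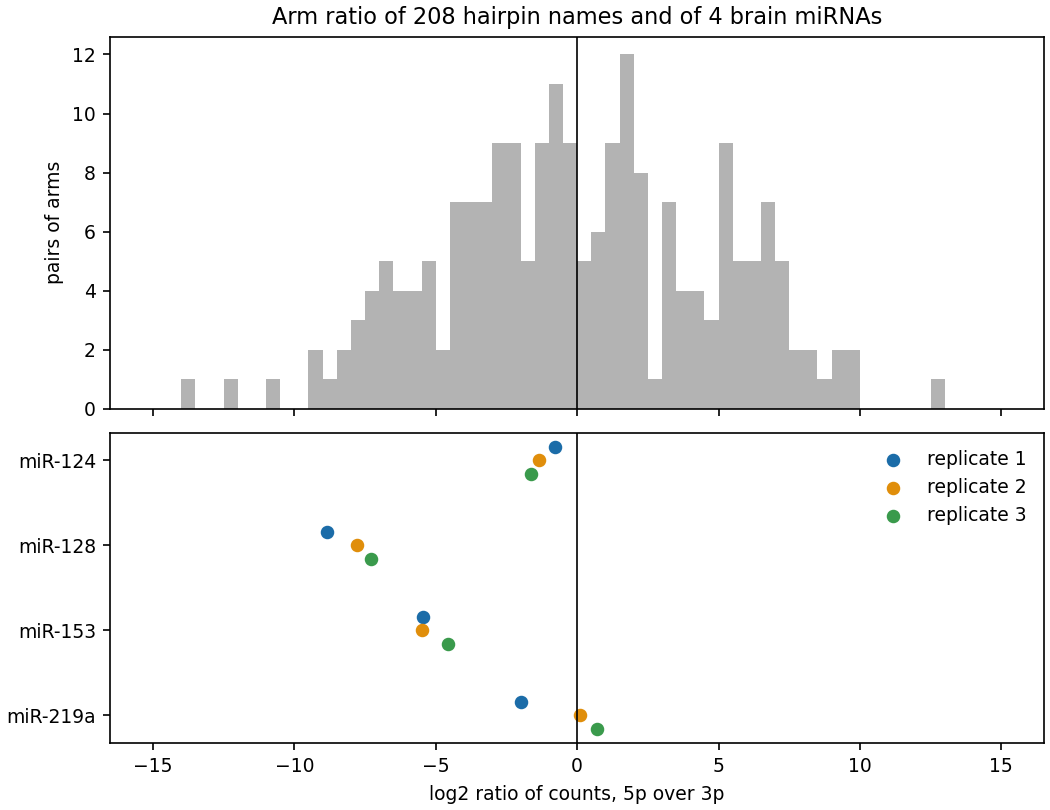
Upper panel, number of pairs by mean log2 ratio of 5p to 3p counts for 208 hairpin names, in bins of equal width. Lower panel, the same ratio of 4 brain miRNAs with 1 point per library. miR-128 and miR-153 lie far toward 3p, and miR-219a lies on both sides of 0.

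Members moved in opposite directions between libraries, as did the listed names as a whole. Of 9 names, 3 were highest and 6 were lowest in replicate 1, against 20.7% and 64.9% of the 781 names above 0 in all libraries. From replicate 1 to replicate 3 the log2 ratio of FPKM was 2.01 for miR-124-3p, above that of 93.3% of the 330 names with at least 100 counts in every library. For miR-128-3p it was -0.59, above that of 8.48% of these names. The coefficient of variation was 58.4% for miR-124-3p and 25.4% for miR-128-3p, with a median of 25.2% over the 330 names.

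Scaling the libraries by the median of ratios removes the shift common to all miRNAs. It multiplies every miRNA of a library by the same factor and so cannot change the difference between members. The log2 ratio of replicate 3 to replicate 1 was then 1.45 for miR-124-3p and 0.61 for miR-124-5p, and -1.16 for miR-128-3p. On that scale the coefficient of variation of miR-128-3p was 48.5%, the larger of the 2 scales, and that of miR-124-3p was 45.3%. miR-128-1-5p did not follow its 3p partner: its log2 ratio of replicate 3 to replicate 1 was 0.97 as deposited and 0.40 after scaling. In replicate 2 its ratio to replicate 1 was 0.45 as deposited but -0.02 after scaling, so no direction is given for that pair of libraries. What set replicate 1 apart was not tested, and the labels name no batch.

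**Figure D5:**
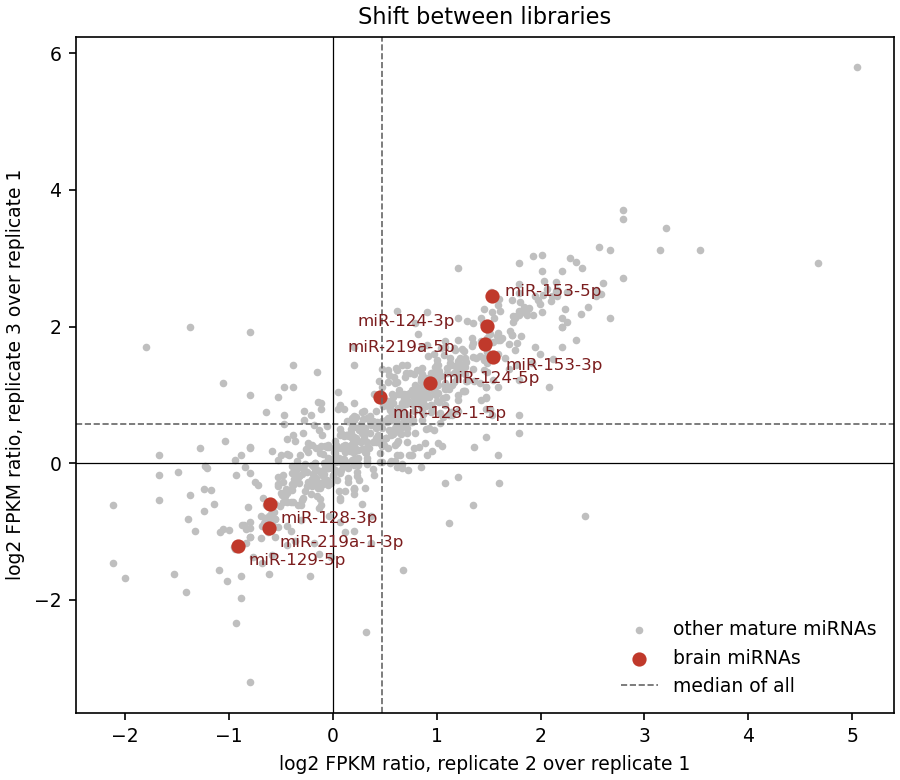
Log2 FPKM ratio of replicate 2 (horizontal) and replicate 3 (vertical) to replicate 1 for 781 mature miRNAs, with the 9 brain miRNAs as larger points and the medians of all as dashed lines at 0.48 and 0.57. miR-124-3p lies at 1.48 and 2.01, and miR-128-3p at -0.60 and -0.59.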

How the data were processed

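Small RNA from 3 replicate cultures of empty-vector MV4-11 cells was sequenced on an Illumina HiSeq 2000 after NEB library preparation. The authors counted aligned reads over mature miRNAs and primary transcripts of miRBase release 21. The submitters' processing notes name Novoalign 2.08.03 and the builds hg19 and mm10, and how reads with several matches or strands were treated is not given in the sources used here. The deposited counts are whole and not normalized. The deposited FPKM were computed by the authors from these counts, with a length 1 base shorter than the RefSeq sequence for 671 of 679 matched names, which raises levels of short RNAs slightly and evenly. Libraries held 10991953 to 12694823 mature and 11022587 to 12722997 primary counts. Levels are FPKM, with the rows of a mature name summed. The files give no coordinates, and those printed are GRCh38, from GENCODE 29 and RefSeq.

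Arms and copies were tested with edgeR 4.0.16 (glmQLFit, glmQLFTest) on counts as deposited, over all pairs above 0 in every library, with the library as a block and library totals as sizes, in R 4.3.3. Alternatives were limma 3.58.1 on log2(FPKM + 1) ratios, DESeq2 1.42.0, TMM factors, no block, a minimum of 10 counts and leaving out each replicate. Intervals and other values came from Python 3.11.15 with scipy 1.17.1 and pandas 2.3.3, and plots from matplotlib 3.10.9. Mature rows were assigned to hairpins by the counts, keeping arm sums at or below the hairpin count in each library. Tests were also run on simulated counts with a 4-fold ratio in some pairs, drawn independently for each side. Such counts hold no shared reads, so they do not check the comparison of copies. The chi-square per degree of freedom was at least 326 for each pair of libraries, which shows only that their counts were not those of 1 library. Per the design text they are separate cultures.

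The rule for names covered all listed members, miRNAs with the same seed, neighbours in mean level and, for the highest member, the 3 names with the closest pattern over libraries. Marker miRNAs came from the lists of white blood cell and neural miRNAs. miR-27a-3p, miR-194-5p, miR-219b and the names closest to miR-124-3p lie outside the rule and were chosen after their values were seen. The members and lists were chosen with earlier results of these data known.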

Additional observations from a re-analysis of the deposited data

How the results depend on the processing

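Of 153 values recomputed under an alternative, 146 kept their class. Averaging the rows of a repeated name in place of summing them lowered the members' share of mature FPKM from 0.559% to 0.282%, and the levels of miR-128-3p, miR-124-3p, miR-124-5p, miR-153-3p and miR-129-5p to 93660, 18539, 6445, 377 and 81.2 FPKM, by construction, as each has several rows. Leaving out 1 replicate gave a share of 0.548% to 0.581%, from 151 to 180 called arm pairs against 172, and 3 called copy pairs each time. The arm pairs called were 170 with limma, 174 with DESeq2, 172 with TMM factors, 136 of 161 with at least 10 counts, and 160 of 195 with arm names as they stand. Arms and copies are paired by library, since both sides are counted in the same one. Without the replicate block 174 arm pairs and 3 copy pairs were called, and no call of a member changed. Copy pairs called were 4 with limma, 2 of 54 with at least 10 counts, and 3 with DESeq2 and TMM factors. The call of miR-124 toward 3p was lost without replicate 2 (edgeR adjusted p = 0.0728), and its adjusted p was 1.87e-04 to 0.0432 under the other settings except for 8.28e-17 without replicate 1. The cause was not tested. In FPKM the log2 ratio of hsa-mir-124-1 to hsa-mir-124-2 was 0.41 (limma adjusted p = 0.00302) against 0.05 in counts, because FPKM divides by hairpin lengths of 84 and 108 bases. Depth limits miR-153-5p, miR-129-5p and both arms of miR-219a most.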

Other observations

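Of 12 other miRNAs enriched in neural cells, 5 had a row. miR-9-5p was the highest of them at 340814 ± 29486 FPKM (SD, n = 3), above miR-128-3p, and its partner miR-9-3p had 9259 ± 4314. miR-132-3p and miR-212-3p, which share a transcript induced by neuronal activity, had 9997 ± 1041 and 3298 ± 780 FPKM (SD, n = 3). miR-338-3p, of oligodendrocytes, had 132 ± 39.9 FPKM (SD, n = 3). The other 7, miR-137, miR-138-5p, miR-218-5p, miR-134-5p, miR-488-3p, miR-383-5p and miR-433-3p, had no row, so the neural list was present in part.

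The pattern over 3 libraries closest to that of miR-128-3p was that of miR-7-5p, itself known from neurons and endocrine cells. The root mean square difference of centred log2 FPKM was 0.016, against a median of 0.52 over 330 names. miR-7-5p had 155613, 86369 and 94109 counts. Next were miR-30d-5p at 0.052 and miR-582-3p at 0.054. The names closest to miR-124-3p, looked up after levels were seen, were miR-106a-5p at 0.032, miR-196b-5p at 0.043 and miR-642a-5p at 0.045. With 3 libraries, many miRNAs share a pattern.

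MIR219B (chromosome 9, 128392621 to 128392708, plus strand) shares 88 bases with MIR219A2 (128392618 to 128392714, minus strand). Its arms had rows: miR-219b-5p with 32, 53 and 71 counts, and miR-219b-3p with 10, 13 and 22. The place of miR-219b-5p shares 20 bases with that of miR-219a-2-3p on the other strand. The study states that sequencing was stranded, but the strand setting of the counting is not given in the sources used here, so reads of the partners cannot be told apart. miR-219a-5p had 23, 55 and 71 counts, but its place in MIR219A2, 128392676 to 128392696, is apart from that of miR-219b-5p.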
